A study of Mus musculus with 6 samples.

Results

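The chemokines and growth factor cytokines that activated T cells secrete were measured by RNA-Seq in Tregs from the BM of mice with chronic myeloid leukemia (CML) and of naive mice. The set held 10 of the 36930 features in the tables and was chosen by function, with earlier results of these data known. It comprised the chemokines Ccl1, Ccl3, Ccl4, Ccl5 and Xcl1, the growth factors Csf1, Csf2 and Il3, and the cytokines Ifng and Il2. All mice carried Foxp3-DTR-GFP, in which the Foxp3 locus drives a human diphtheria toxin receptor and GFP, and were labelled post natal week 8. CML was made by intravenous injection of LSK cells (a stem and progenitor fraction) carrying a BCR-ABL1-GFP retrovirus into recipients that were not irradiated, and the 3 CML libraries were taken 15 days after induction. The 3 naive libraries came from mice without leukemia. Both the leukemia vector and the Foxp3 reporter carry GFP, which limits GFP alone as a mark of Tregs in the leukemic mice. The labels do not say whether a library was 1 mouse or a pool, so p-values measure the spread between these libraries.

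When a T cell is triggered through its receptor, calcium signaling and kinases activate the factors NFAT, AP-1 and NF-kB, which switch on chemokine and cytokine genes within hours. Ccl3, Ccl4 and Ccl5 attract monocytes, dendritic cells, NK cells and T cells. Csf1, Csf2 and Il3 support the growth and differentiation of myeloid cells, and Il2 is the T cell growth factor that Tregs consume but, under Foxp3, make little of.

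Expression was given as RPKM, reads scaled to the length of a gene and to the depth of a library, so levels can be compared between genes. Of the 10 genes, 9 had reads in any library and 4 (Ccl4, Ccl5, Csf1 and Ifng) had reads in all 6. Ccl3, Ccl4, Ccl5, Xcl1, Csf1 and Ifng, 6 of the 10, passed the filter of a mean of at least 1 RPKM and were tested. The reads behind each library, recovered from the step size of the values, ranged from 829195 (CML replicate 2) to 7613423 in CML and from 5188374 to 9751409 in naive Tregs. CML replicate 2 stood apart, with 50.7% of its summed RPKM in its 10 leading features against 28.5% to 31.3% in the other libraries. The Treg identity of the libraries was visible in their markers. Foxp3 was 299 to 468 RPKM in CML and 297 to 367 RPKM in naive libraries.

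On the chromosomes, 6 of the 10 genes lie on chromosome 11 (GRCm38, GENCODE M21). Ccl5 (chr11:83525778-83530518, minus strand) lies 117.3 kb from Ccl3 (chr11:83647844-83649355, minus strand), and Ccl3 lies 13.2 kb from Ccl4 (chr11:83662584-83664683, plus strand). Csf2 and Il3 are neighbors as well, 15.6 kb apart. No stretch of 76 bases, the read length, in the longest transcript of Ccl3, Ccl4 or Ccl5 occurs in a transcript of another gene. For Ifng 113 of 1133 such stretches are shared with Gm49751, which overlaps it on the same strand, and for Il2 112 of 1069 are shared with Ntan1, so reads there could be split.

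RefSeq promoter windows (GRCm38.p6) were matched for 8 of the 10 genes, and Ccl4 and Ccl5 had no entry. The 250 bases before the start were searched on both strands for the letters GGAAA (the NFAT core), TGANTCA (AP-1) and GGGANNNNCC (NF-kB). Such a motif is only a match of letters, and a GGAAA may lie inside a GGGANNNNCC. The NFAT core was found in 8 of the 8 windows, against 55.6% of all 32851 promoter windows. TGANTCA was in 0 of the 8 windows, against 6.75% of all. GGGANNNNCC was in 2 of the 8 windows (Csf1 and Ccl1), against 17.6% of all. The RefSeq start of Csf2 used here lies 232 bases upstream of the GENCODE gene start, and that of Ccl1 lies 125878 bases inside the GENCODE gene, at the start of its coding transcripts. The 200 bases before the start are shown for Ccl3, which was higher in CML Tregs, for Ifng, read in all 6 libraries, and for Il2, read in 1 library, with matches to the NFAT core in capitals (TTTCC is GGAAA on the other strand). The coordinates are chr11:83649379-83649578, minus strand for Ccl3, chr10:118440846-118441045, plus strand for Ifng, and chr3:37125955-37126154, minus strand for Il2.
Ccl3: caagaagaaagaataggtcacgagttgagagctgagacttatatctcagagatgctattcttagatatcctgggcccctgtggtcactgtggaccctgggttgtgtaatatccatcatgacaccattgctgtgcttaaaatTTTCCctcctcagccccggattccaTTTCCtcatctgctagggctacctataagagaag
Ifng: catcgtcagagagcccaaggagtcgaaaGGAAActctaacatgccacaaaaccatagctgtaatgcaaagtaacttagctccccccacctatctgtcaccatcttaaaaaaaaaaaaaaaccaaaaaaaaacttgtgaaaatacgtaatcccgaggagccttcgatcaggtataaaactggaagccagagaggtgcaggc
Il2: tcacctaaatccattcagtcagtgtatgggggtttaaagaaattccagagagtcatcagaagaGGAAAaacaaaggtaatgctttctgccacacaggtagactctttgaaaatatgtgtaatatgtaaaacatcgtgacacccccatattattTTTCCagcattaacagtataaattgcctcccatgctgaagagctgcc
The NFAT core lies 59 to 55 and 34 to 30 bases before the start of Ccl3, 172 to 168 bases before that of Ifng, and 137 to 133 and 47 to 43 bases before that of Il2. Genes with very different RPKM levels in these Tregs hold the same letters.

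The question of the comparison was how Tregs in leukemic BM differ from those of naive BM. The inflammatory chemokines Ccl3, Ccl4 and Ccl5 were each higher in all 3 CML libraries than in any naive library. The mean RPKM in CML was 14.2 times the naive mean for Ccl3, 8.07 times for Ccl4 and 3.13 times for Ccl5. Ifng and Csf1 overlapped between the groups, Xcl1 and Ccl1 rested on few reads, and Csf2, Il3 and Il2 had no read in any CML library. At an adjusted p under 0.05 and a fold of at least 1.5, none of the 6 genes tested passed in limma; at an unadjusted p, 3 of the 6 passed, all 3 higher in CML.

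Ccl5, also known as RANTES, was the most abundant of the 10 genes in every library. It was read at 302, 227 and 513 RPKM in CML replicates 1 to 3, from 634, 52 and 324 reads. In naive Tregs it was 92.9, 104 and 136 RPKM, from 133, 252 and 365 reads. The lowest CML library thus lay 1.68 times above the highest naive library. The means were 347 ± 149 RPKM in CML and 111 ± 22.2 RPKM in naive Tregs (SD, n = 3 each). The log2 fold change was 1.57 ± 0.30 (SE), with an adjusted p of 0.141 in limma and an unadjusted p of 0.000818. Ccl5 alone made up 72.0% to 77.3% of the summed RPKM of the 10 genes in CML libraries and 63.2% to 72.8% in naive libraries.

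Ccl4, a chemokine of the MIP family, was 22.1, 25.9 and 47.0 RPKM in CML replicates 1 to 3, from 47, 6 and 30 reads. In naive Tregs it was 4.14, 2.86 and 4.78 RPKM, from 6, 7 and 13 reads. All CML values thus exceeded all naive values, and the exact 95% Poisson intervals of the CML libraries, which start at 9.52 RPKM, lay above those of the naive libraries, which end at 9.02 RPKM. Means were 31.7 ± 13.4 RPKM in CML and 3.93 ± 0.977 RPKM in naive Tregs (SD, n = 3 each). The log2 fold change was 2.68 ± 0.38 (SE), with an adjusted p of 0.0578 in limma and an unadjusted p of 0.000124. The Poisson intervals cover counting error only. The paper does not state whether PCR copies of a molecule were removed, and if they were counted as separate reads the intervals are too narrow. The adjusted p was under 0.05 with 4 of 16 alternatives and ranged from 0.0328 to 0.403 over them.

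Ccl3, the neighbor and close relative of Ccl4, was 27.3, 25.9 and 25.1 RPKM in CML replicates 1 to 3, from 58, 6 and 16 reads. Among naive libraries only replicate 1 had reads, 8 of them, at 5.53 RPKM, and replicates 2 and 3 had none. The 3 reads that a count of 0 allows come to 1.23 RPKM in naive replicate 2 and 1.103 RPKM in naive replicate 3. Up to about that level, Ccl3 could be present there without a read. The CML values lay close together and above every naive value, but the 95% counting intervals of CML replicate 2 (9.52 to 56.5 RPKM) and naive replicate 1 (2.39 to 10.9 RPKM) overlapped. The mean was 26.1 ± 1.12 RPKM in CML and 1.84 ± 3.19 RPKM in naive Tregs (SD, n = 3 each). The log2 fold change of 3.86 ± 0.73 (SE; adjusted p = 0.141 in limma, unadjusted p = 0.000815) had rank 1 among 13923 genes tested. That fold depends on the pseudocount: it was 6.09 with a pseudocount of 0.1 and 2.28 with a pseudocount of 5, and the other 14 alternatives lay between 3.41 and 4.76. The rank was 1 to 10 over all 16. Ccl4 had rank 20 and Ccl5 rank 149. The ratio of means for Ccl3 rests on naive replicate 1, the only naive library with reads of it.

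**Figure D1:**
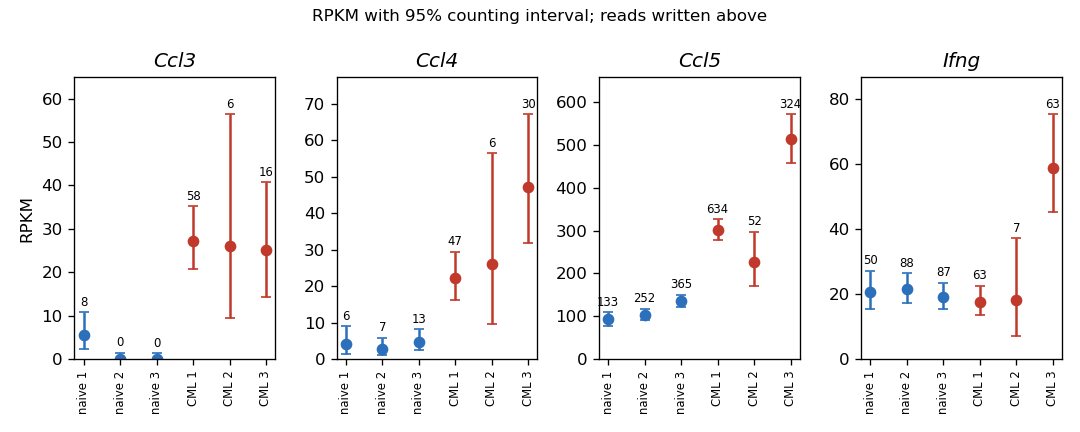
RPKM of Ccl3, Ccl4, Ccl5 and Ifng (vertical axes, each from 0) in each of the 3 naive (blue) and 3 CML (red) libraries. Bars are exact 95% Poisson intervals of the counts and the reads are written above them; the CML values of Ccl3, Ccl4 and Ccl5 lie above all naive values, while Ifng is high in CML replicate 3 alone (58.9 RPKM).

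Read against the whole table, these counts were as follows. The set, and the lists described below, were chosen with earlier results of these data known, so these shares are not a blind comparison. Of all genes tested, 2.61% stood higher and 5.94% lower in CML Tregs at an unadjusted p under 0.05 with a fold of at least 1.5, and 3 and 0 of the 6 genes of the set were. In 4.84% of genes tested every CML value exceeded every naive value and in 12.2% every CML value was below, and in 3 and 0 of the 6 genes of the set. At an adjusted p, 0.0431% of genes tested were higher and 0.129% were lower, and none of the 6 genes of the set passed in either direction. The median log2 fold change was 1.45 over the 6 genes and -0.18 over all genes tested. That median leaves out the genes of the set below the filter. In the fit without the filter, Csf2, Il2 and Ccl1 were at -0.99, -0.31 and -0.14, each on few reads. Xcl1 passed the filter mainly through its CML values (mean 5.02 RPKM, against 0.991 RPKM in naive Tregs). The split of calls at an unadjusted p moved with the scaling, from 363 higher and 827 lower to 624 and 590 after quantile normalization, 211 and 1584 after matching 75th percentiles, and 561 and 634 after matching sums without LOC, Mir and Snor features. The median over all genes was -0.01, -0.36 and -0.06 under those scalings. Ccl3, Ccl4 and Ccl5 were the 3 genes that passed at an unadjusted p under each of them. With 3 libraries against 3, the smallest p of an exact 2-sided permutation test is 0.1, and Ccl3, Ccl4 and Ccl5 each reached it. In bulk samples, fewer cells of a type and less RNA per cell cannot be told apart.

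**Figure D2:**
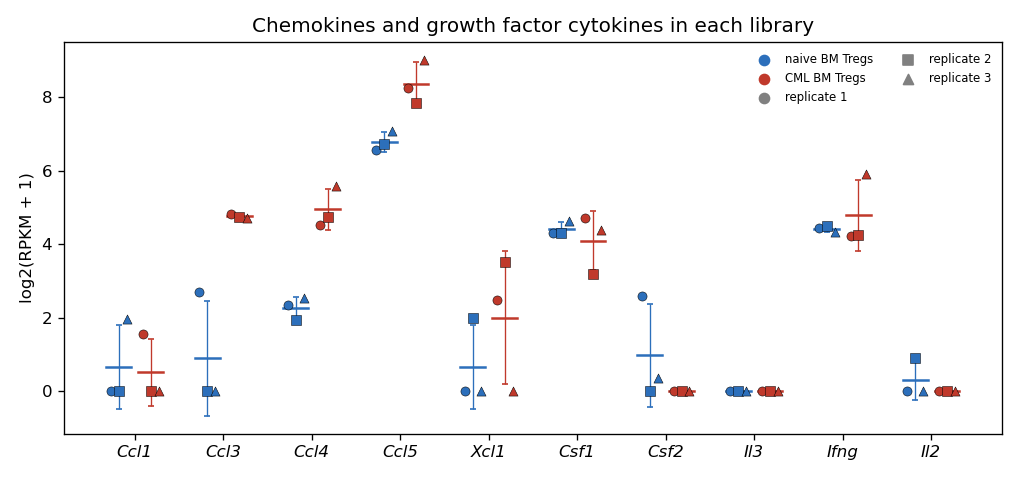
Expression of the 10 genes as log2(RPKM + 1), vertical axis, in naive (blue) and CML (red) BM Tregs; each point is a library, the horizontal line is the mean of log values and the bar is 1 SD of 3 libraries. Ccl3, Ccl4 and Ccl5 do not overlap between the groups, and Il3 is at 0 in all 6 libraries.

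Among the other chemokines, Xcl1, which attracts cross-presenting dendritic cells, was 4.57, 10.5 and 0 RPKM in CML replicates 1 to 3, from 12, 3 and 0 reads. In naive Tregs it was read in replicate 2 alone, at 2.97 RPKM from 9 reads. The groups overlapped (log2 fold change 1.34 ± 0.995, SE; limma unadjusted p = 0.217, adjusted p = 0.689). With 1 library left out, the log2 fold change ran from 0.58 without CML replicate 2 (adjusted p = 0.844 in limma) to 2.34 without CML replicate 3, the CML library at 0 (adjusted p = 0.392 in limma). Ccl1, the ligand of Ccr8, was read in 2 libraries only, at 1.96 RPKM in CML replicate 1 (about 4 reads) and 2.94 RPKM in naive replicate 3 (about 8 reads). It stayed below the filter on low values, and no difference was detectable at this depth.

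Ifng, the main macrophage-activating cytokine of T cells, was 17.7, 18.04 and 58.9 RPKM in CML replicates 1 to 3, from 63, 7 and 63 reads. In naive Tregs it was 20.6, 21.4 and 19.1 RPKM, from 50, 88 and 87 reads. CML replicate 3 stood far above the rest, while CML replicates 1 and 2 lay just below the naive values. The log2 fold change was 0.38 ± 0.45 (SE; adjusted p = 0.79 in limma), and without CML replicate 3 it was -0.18. Its 95% counting interval in CML replicate 3, 45.2 to 75.3 RPKM, lay above those of all other libraries. CML replicate 3 was also the only library with reads of Il21, at 33.7 RPKM, and of Cxcl9, at 12.6 RPKM. Il21 and Cxcl9, a T cell cytokine and a chemokine induced by interferon gamma, were singled out after their values were seen.

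Among the growth factors, Csf1, which macrophages need for survival, was 25.4, 8.10 and 20.2 RPKM in CML replicates 1 to 3 and 18.8, 18.8 and 23.7 RPKM in naive replicates 1 to 3. Only CML replicate 2, the shallowest library, lay below the rest, at about 11 reads. The means were 17.9 ± 8.87 RPKM and 20.4 ± 2.83 RPKM (SD, n = 3 each), and the log2 fold change was -0.31 ± 0.41 (SE; adjusted p = 0.816 in limma). Without CML replicate 2 it was 0.15.

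Csf2, which encodes GM-CSF, had no reads in the 3 CML libraries and was read in 2 naive libraries, at 5.02 RPKM in replicate 1 (about 11 reads) and 0.297 RPKM in replicate 3 (about 1 read). Il2 was read in naive replicate 2 alone, at 0.894 RPKM from 4 reads. Il3 was at 0 in all 6 libraries. Over the 10728766 reads of the CML libraries together, the 3 reads that a count of 0 allows come to 0.656 RPKM for Csf2, 0.548 RPKM for Il2 and 0.558 RPKM for Il3. In CML replicate 2 alone they come to 8.49, 7.09 and 7.22 RPKM, so that library says little about any of them. The exact permutation test gave p = 0.4 for Csf2 and p = 1 for Il2 (2-sided, n = 3 each), and differences were not detectable at this depth.

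By level, the order in naive Tregs was Ccl5, then Csf1 and Ifng, then Ccl4, Ccl3, Csf2, Xcl1, Ccl1, Il2 and Il3. Ccl5 lay above Csf1 in every naive library, and Csf1 and Ifng, at mean levels of 20.4 RPKM each, overlapped. Ifng in turn lay above Ccl4 in every naive library. In CML Tregs the order was Ccl5, Ccl4, Ifng, Ccl3, Csf1, Xcl1 and Ccl1, with Csf2, Il3 and Il2 at 0. There, Ccl5 lay above the rest in every library, and neighbors below it overlapped. Ccl4 and Ccl3 thus stood beside Ifng and Csf1 in CML Tregs, whereas in naive Tregs they lay below both.

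The receptors of these ligands were read in the same Tregs. Of 16 receptor genes listed, 15 had reads and 13 were tested. Of the 13, 1 passed at an adjusted p, the chemokine receptor Ccr8, which binds Ccl1 and is typical of activated tissue Tregs. At an unadjusted p with the same fold, 3 were higher and 1 was lower. Over all genes tested, 2.61% were higher and 5.94% lower at that cut, and 0.0431% were higher at an adjusted p. The median log2 fold change of the 13 was 0.26, against -0.18 over all genes tested.

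Ccr8 was 40.4, 32.9 and 44.9 RPKM in CML replicates 1 to 3 and 7.99, 7.08 and 10.7 RPKM in naive replicates 1 to 3. The CML values thus lay well above the naive values, with means of 39.4 ± 6.05 RPKM and 8.60 ± 1.89 RPKM (SD, n = 3 each). Its log2 fold change was 2.08 ± 0.27 (SE; adjusted p = 0.0416 in limma, ranging from 0.0193 to 0.318 over 16 alternatives). The adjusted p was above 0.05 in 10 of those 16, among them each fit that left out 1 library (0.0687 without CML replicate 2 to 0.318 without naive replicate 2). The ligand Ccl1, as given above, was near its floor in both groups.

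Ccr1, which binds Ccl3 and Ccl5, and Ccr3, which binds Ccl5, stayed at or below 5.58 RPKM in all libraries and overlapped between the groups. The Xcl1 receptor Xcr1, best known from dendritic cells, was at 0 in all 6 libraries.

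The 2 chains of the interferon gamma receptor lay on opposite sides of the naive range. Ifngr1, the ligand-binding chain, was 504 to 673 RPKM in CML and 280 to 326 RPKM in naive libraries (log2 fold change 0.93 ± 0.16, SE; adjusted p = 0.0967 in limma). Ifngr2, the chain that T cells adjust to set their response, was 8.81 to 17.1 RPKM in CML and 22.7 to 24.9 RPKM in naive libraries (log2 fold change -0.95 ± 0.30, SE; adjusted p = 0.369 in limma). Neither chain overlapped between the groups, and neither passed at an adjusted p. The RPKM ratio of Ifngr1 to Ifngr2, a measure chosen after the values were seen, was 34.1 to 76.4 in CML and 11.2 to 13.8 in naive libraries.

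The 3 chains of the Il2 receptor also differed from each other. Il2rb, the signaling chain shared with the receptor of another interleukin, was 344 to 604 RPKM in CML and 191 to 226 RPKM in naive libraries (log2 fold change 1.25 ± 0.22, SE; adjusted p = 0.115 in limma). Il2ra, the high-affinity chain CD25, was 109 to 277 RPKM against 130 to 200 RPKM and overlapped. Il2rg, the common gamma chain, was 225 to 265 RPKM in CML and 283 to 339 RPKM in naive libraries, without overlap, at a log2 fold change of -0.34 ± 0.15 (SE; adjusted p = 0.513 in limma). The receptors of the growth factors, Csf2ra, Csf2rb, Csf2rb2 and Il3ra, overlapped between the groups, and Csf1r was at or below 1.83 RPKM in every library.

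**Figure D3:**
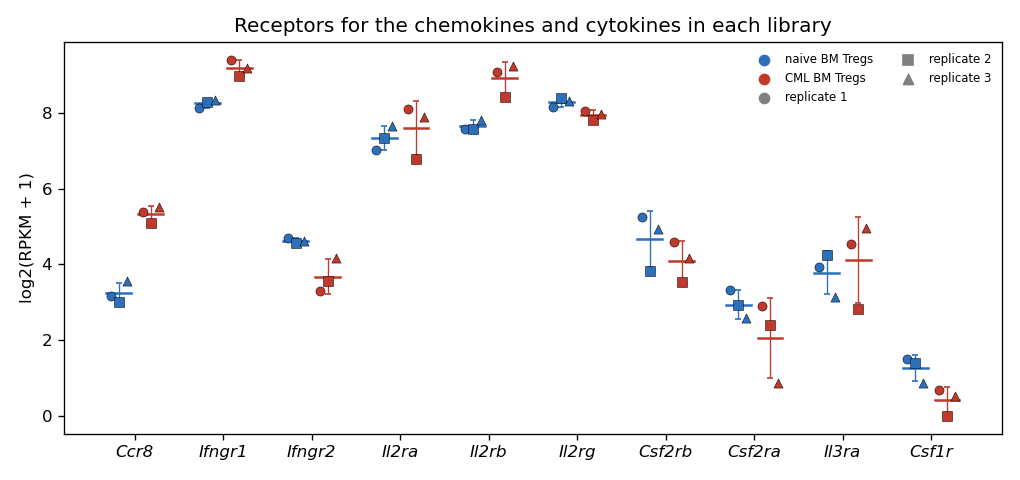
Receptors of the chemokines and cytokines as log2(RPKM + 1), vertical axis, in naive (blue) and CML (red) BM Tregs; points are libraries, lines are means of log values and bars 1 SD of 3 libraries. Ccr8, Ifngr1 and Il2rb lie higher in all CML libraries, Ifngr2 and Il2rg lower, and Il2ra overlaps.

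**Figure D4:**
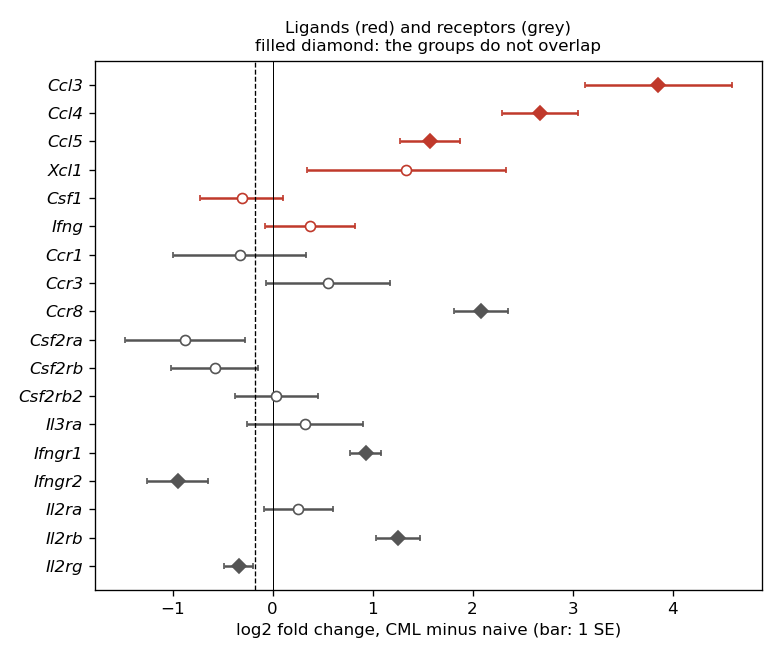
Log2 fold change, CML minus naive, with 1 SE, for the 6 ligands (red) and 12 receptors (grey) shown, all past the filter on low values; filled diamonds mark genes whose groups do not overlap and the dashed line is the median of all genes tested (-0.18). Ccl3 (3.86), Ccl4 (2.68) and Ccr8 (2.08) lie farthest to the right.

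Other secreted factors of T cells were listed for comparison. Of the 35 genes, 12 had no reads in any library, among them Il4, Il5, Il13, Il17a, Il22 and Ccl22, and 17 were tested. None of the 17 passed at an adjusted p in limma. At an unadjusted p with a fold of at least 1.5, 3 were higher and 1 was lower, against 2.61% and 5.94% of all genes tested. Their median log2 fold change was -0.28. Penk, which encodes the opioid precursor proenkephalin, was 61.7, 88.2 and 142 RPKM in CML and 22.2, 26.1 and 15.5 RPKM in naive replicates 1 to 3 (log2 fold change 2.09 ± 0.33, SE; adjusted p = 0.0793 in limma). Mif, macrophage migration inhibitory factor, was 42.3 to 66.6 RPKM in CML and 21.8 to 26.6 RPKM in naive libraries (log2 fold change 1.19 ± 0.23, SE; adjusted p = 0.155 in limma). Tnfsf8, the ligand of CD30, was 3.03, 0 and 0 RPKM in CML against 12.5 to 20.8 RPKM in naive libraries (adjusted p = 0.131 in limma). By the mean over all 6 libraries, the most abundant factors of the list were Ltb, Tgfb1 and Il16, although Penk (mean 97.3 RPKM) lay above Tgfb1 (82.9 RPKM) and Il16 (66.2 RPKM) in CML. Ltb was 211 to 324 RPKM in CML and 342 to 354 RPKM in naive libraries, and Il16 was 54.3 to 78.7 RPKM against 81.85 to 94.5 RPKM. Both were thus lower in every CML library, at log2 fold changes of -0.42 and -0.41. Tgfb1 was 77.1 to 90.6 RPKM in CML and 79.9 to 86.2 RPKM in naive libraries, and overlapped. Of the 17 genes, 2 were higher and 3 lower without overlap, against 4.84% and 12.2% of all genes tested.

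Genes known to respond to interferon gamma were listed beside Ifng. All 24 had reads and were tested. None passed at an adjusted p in limma. At an unadjusted p with a fold of at least 1.5, 5 were higher and 0 lower, against 2.61% and 5.94% of all genes tested. In 8 of the 24 every CML value exceeded every naive value, against 4.84% of all genes tested. The fitted direction was higher for 20 and lower for 4 of the 24, with a median of 0.36, but 14 and 10 with a median of 0.15 after matching 75th percentiles. Over all genes tested it was higher for 4977 and lower for 8946. Ly6a, a surface marker raised by interferons on lymphocytes, was 134 to 160 RPKM in CML and 58.5 to 78.5 RPKM in naive libraries (log2 fold change 1.14 ± 0.17, SE; adjusted p = 0.0729 in limma). Serpina3g, a serine protease inhibitor, was 135 to 229 RPKM against 62.9 to 89.1 RPKM (log2 fold change 1.28 ± 0.23, SE; adjusted p = 0.125 in limma). Socs1, a feedback inhibitor of interferon signaling, was 35.9 to 51.0 RPKM against 21.2 to 27.1 RPKM (log2 fold change 0.89 ± 0.23, SE; adjusted p = 0.273 in limma). The GTPases Iigp1 and Igtp were also higher in all 3 CML libraries, with log2 fold changes of 0.71 and 0.60. Ifng itself was above the naive range in CML replicate 3 only. Ly6a, Serpina3g, Socs1, Iigp1 and Igtp were named because their groups did not overlap, so they cannot be set against Ifng on that point.

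**Figure D5:**
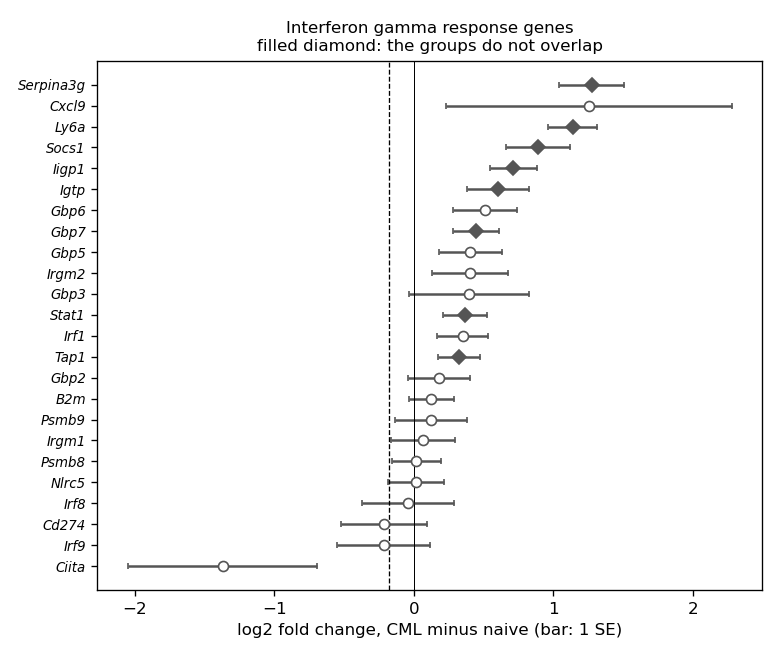
Log2 fold change, CML minus naive, with 1 SE, for the 24 interferon gamma response genes; filled diamonds mark the 8 genes whose groups do not overlap and the dashed line is the median of all genes tested (-0.18). Serpina3g (1.28) and Ly6a (1.14) are the highest without overlap, and Ciita (-1.37) is the lowest.

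Markers of other cells that make these ligands were read beside them. Of 14 CD8 T and NK cell markers, 13 had reads and Klrc1 was at 0 in all libraries; their summed level was 91.8 to 116 RPKM in CML and 47.5 to 95.3 RPKM in naive libraries. Nkg7, a cytotoxic granule gene, was 12.1 to 28.1 RPKM in CML and 4.81 to 11.6 RPKM in naive libraries. Of the 7 tested, the fitted direction was higher in CML for 6 and lower for 1, and none passed at an adjusted p in limma. Their median log2 fold change was 0.72, against -0.18 over all genes tested. The summed levels overlapped, since naive replicate 1 (95.3 RPKM) exceeded CML replicate 2 (91.8 RPKM), the shallowest library. Single markers of that pair differed in direction. Cd8b1 was 52.2 RPKM in naive replicate 1 and 35.7 RPKM in CML replicate 2, and Cd8a was 6.45 and 15.4 RPKM. All 14 neutrophil and myeloid markers had reads, summing to 74.4, 252 and 264 RPKM in CML replicates 1 to 3 and to 89.4 to 91.2 RPKM in naive libraries. Of the 12 tested, the fitted direction was higher in CML for 11 and lower for 1, with a median log2 fold change of 0.83. With library weights it was higher for 8 and lower for 4, with a median of 0.16. Elane was 3.95, 7.56 and 29.1 RPKM in CML replicates 1 to 3 and 1.43 to 3.34 RPKM in naive libraries, without overlap. In CML replicate 1, where the sum of these markers was lowest, the neutrophil genes S100a8 and Ngp were at 0. The macrophage-associated genes Cd68 (47.4 RPKM) and Lyz2 (12.6 RPKM) were at their highest of the 6 libraries there. Cd68 was nearly as high in naive replicate 1 (46.6 RPKM), and Csf1r (0.609 RPKM) and Itgam (1.57 RPKM) were low in CML replicate 1.

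Of 8 basophil and mast cell markers, 7 had reads and Fcer1a was at 0; the sums were 4.69 to 12.0 RPKM in CML and 0.378 to 4.96 RPKM in naive libraries. The 8 erythroid markers summed to 35.6 to 206 RPKM in CML and 5.01 to 29.6 RPKM in naive libraries, and did not overlap. Of 6 B cell markers, 3 had reads, and Ebf1 and Pax5 were among those at 0; sums were 3.18 to 8.80 RPKM and 8.42 to 10.7 RPKM. The part of such cells in the values of Ccl3, Ccl4 and Ccl5 was not tested.

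Among the 5 genes with the pattern most like Ccl5 over the 6 libraries, by Pearson r of log2(RPKM + 1), were Pde4d (0.993), Crem (0.990), Apol9a (0.990) and LOC105244795 (0.989). Pde4d, a cAMP phosphodiesterase, was 37.8 to 55.3 RPKM in CML and 20.9 to 25.6 RPKM in naive libraries. Crem, a cAMP-responsive transcription factor, was 18.3 to 33.4 RPKM in CML and 8.00 to 11.7 RPKM in naive libraries. These correlations are descriptions over 6 libraries that share the group difference and the differences in depth.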

How the data were processed

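BM Tregs of CML and naive mice (3 samples each) were sorted by FACS, and libraries were made with the SMART-Seq v4 kit and sequenced as single reads of 76 bases. The authors assembled reads in SeqMan NGen v.15 and deposited one RPKM value per feature from ArrayStar v.15; the submitters' processing notes name GRCm38 and mm10. The count tests named in the paper's methods were not run, because the deposited RPKM values are not counts. The value 0.001 marks features without reads and was set to 0. For genes with a single coding length (GENCODE M21), RPKM times coding length fell within 0.05 of whole reads for 67.6% to 71.0% of products up to 20 reads, against 10% by chance. This gave the total of each library and the reads of each gene; those of Csf1, Csf2 and Ccl1 are approximate because the products were not whole. The depth of 829195 to 9751409 reads a library sets the precision, and exact 95% Poisson intervals and a floor of 3 reads cover counting error only.

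Libraries were grouped by their labels. CML and naive Tregs were compared on the log2(RPKM + 1) scale by limma 3.58.1 (R 4.3.3), with a trended prior variance and Benjamini-Hochberg adjustment over the 13923 features whose mean reached 1 RPKM, so fold changes of low genes are understated. Single genes were also compared with exact 2-sided permutation tests. Alternatives were pseudocounts of 0.1 and 5, no filter, a mean of at least 5 RPKM, 3 scalings, a replicate block, no trend, library weights and each library left out. All 10 genes and the receptor of each were named, with the 5 genes most like Ccl5. In the receptor, secreted factor and interferon gamma response lists, genes past an adjusted p of 0.05 were named. Genes of these lists without overlap at a fold of at least 1.5 were named too, with up to 6 abundant others a list. Of the cell type markers, only examples were named. The members and lists were chosen with earlier results of these data known. The authors' own comparison values were not used, and values of a few listed genes are not reported here. Python 3.11.15, numpy 2.4.6, pandas 2.3.3 and scipy 1.17.1 served the other steps.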

Additional observations from a re-analysis of the deposited data

How the results depend on the processing

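The direction of Ccl3, Ccl4, Ccl5 and Xcl1 held under all alternatives run, and Ccl3, Ccl4 and Ccl5 passed at an unadjusted p in all 16. Log2 fold changes with 1 library left out ran from 3.41 to 4.76 for Ccl3, from 2.36 to 2.89 for Ccl4 and from 1.25 to 1.84 for Ccl5. Ifng changed sign without CML replicate 3 (-0.18) and Csf1 without CML replicate 2 (0.15), so each fitted direction rests on 1 library; with 1 library left out they ran from -0.18 to 0.66 and from -0.62 to 0.15. The number of the 10 genes called at an adjusted p, 0 as reported, was 2 (Ccl4 and Ccl5) with quantile normalization and 1 (Ccl4) with matched 75th percentiles, with matched sums or with library weights.

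Over all genes, 24 calls became 1 without the filter, 53 with quantile normalization, 46 with matched 75th percentiles, 44 with matched sums, 11 without the trend, 45 with library weights, and 0 to 17 with 1 library left out. The receptor list, at 1 call, had 3 with quantile normalization, with matched sums or with library weights, 0 without the filter, with matched 75th percentiles or without the trend, and 0 to 1 with 1 library left out. The other secreted factors had 1 call with quantile normalization or matched 75th percentiles. The interferon gamma response genes had 1 with quantile normalization or library weights and 2 with matched sums. The causes of these changes were not tested.

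With the replicate block, 1 gene was called over all genes and 0 receptors. The labels do not say whether libraries with the same replicate number were handled together. Deviations of libraries with the same number correlated at -0.0048, -0.0016 and -0.019, which cannot settle this with 3 libraries a group. Depth limits Csf2, Il2, Il3, Ccl1 and Xcl1, above all in CML replicate 2.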
